A study of Mus musculus with 6 samples.

Results

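Voltage-gated sodium and calcium channel genes were taken from the count tables by symbol. Members were the entries reading Scn, digits and then a or b, or starting with Cacna, Cacnb or Cacng. There were 40 of them among 23282 entries: 10 sodium channel alpha and 4 beta subunit genes, and 10 alpha1, 4 alpha2delta, 4 beta and 8 gamma subunit genes of calcium channels. Scn2a was listed under its older symbol Scn2a1. The libraries came from the forebrain of wild-type C57BL/6J male mice, 8 to 10 weeks old, fed for 10 days either a normal chow diet (NCD, 3 libraries) or a high-fat diet with 60 kcal% fat (HFD, 3 libraries). A single hemisphere was used after the olfactory bulbs and the cerebellum had been taken off, so each library averaged over many regions and cell types, in which fewer cells of a type and less RNA per cell cannot be told apart. No mutation, transgene or drug was part of the design. The labels do not say that the 3 libraries of a diet came from separate animals, so p-values measure the spread between these samples, which may be technical.

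Sodium channels open on depolarization and carry the rising phase of the action potential. Their large alpha subunit forms the pore, and small beta subunits, which are also adhesion proteins, set its gating and place in the membrane. Calcium channels turn the same depolarization into calcium entry, which drives transmitter release, dendritic spikes, burst firing and gene expression. Their alpha1 subunit is the pore and fixes the current type (L, P/Q, N, R or T), alpha2delta and beta subunits bring it to the surface, and most of the gamma proteins of the brain serve instead as auxiliary subunits of AMPA-type glutamate receptors.

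Total counts ran from 6842785 to 9689372 per library, and 3 counts corresponded to between 0.316 and 0.432 CPM (counts scaled to a common library size after trimmed-mean normalization). The 8 neuron markers, among them Rbfox3 and Syt1, summed to between 6527 and 7047 CPM in every library. HFD replicate 3 stood apart from the other 5 libraries. Its 6 pituitary markers summed to 1261 CPM, of which Gh gave 1092 CPM, against 1.75 to 8.74 CPM elsewhere. Its hypothalamic markers summed to 26.7 CPM against 66.4 to 106.9, and its midbrain markers to 40.3 CPM against 62.2 to 85.02. Its sums were also the lowest for 6 inhibitory neuron markers (493 CPM against 605 to 699) and 6 oligodendrocyte precursor markers (124 CPM against 151 to 174). The same held for 8 endothelial and mural cell markers (123 CPM against 140.01 to 179). Of these 8, 4 were lowest in this library, and 7 had a positive log2 fold change between the diets (median 0.32). Other lists lowest in it included 6 hippocampus markers (95.6 CPM against 103 to 132) and 6 sensory ganglion markers (5.36 CPM against 7.63 to 9.28). For 7 astrocyte markers it was the highest (2532 CPM against 2280 to 2389). Between the diets, Dlx1 of the 6 inhibitory neuron markers (4 negative, 2 positive) and 4 of the 5 liver markers tested (Alb, Ahsg, Apoa1 and Fgb) were lower in HFD at an unadjusted p under 0.05 in edgeR. The liver markers had a median log2 fold change of -2.10. At the same p, 2 of 7 midbrain and 1 of 3 skeletal muscle markers tested were lower. Of the 7 midbrain markers, 6 were lowest in HFD replicate 3. Higher were 1 of 2 pituitary markers and the 1 photoreceptor marker tested. The pituitary sums of HFD replicates 1 and 2 were 2.59 and 1.75 CPM, under the 4.57 to 8.74 CPM of NCD. Over all genes tested, 1.98% were lower and 1.71% higher at that p. The other marker lists had no gene at that p. Results are given with and without HFD replicate 3 below, and the part of tissue composition in any channel value was not tested.

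Enough counts for a test were present for 30 of the 40 channel genes, and none of these passed the test adjusted over all genes. Between HFD and NCD, 0 channel genes were higher and 1, Cacna1g, was lower by the rule of p under 0.05 before adjustment in the edgeR quasi-likelihood fit. This was 3.33% of the channel genes tested, beside 1.98% of all 13771 genes tested that were lower and 1.71% that were higher by the same rule, so the share was near the background. None of the 13771 genes passed after Benjamini-Hochberg adjustment (0%), with 507 genes at an unadjusted p under 0.05, and DESeq2 passed 2 genes, neither of them a channel gene. The smallest adjusted p was 0.979 among the channel genes and 0.519 over all genes. The log2 fold change was positive for 11 and negative for 19 channel genes, with a median of -0.06 beside -0.0025 over all genes. It lay between -0.50 and 0.15 and was within its standard error for 22 of the 30, and 0 genes reached the 1.5-fold used by the study. The median SE was 0.14 log2 units, with a range from 0.098 to 0.51. The number of genes lower at that p was 4 without HFD replicate 1, 3 without HFD replicate 2 and 2 without NCD replicate 1. Leaving out HFD replicate 3 gave 1 again, the median was then 0.0055, and 16 genes had a positive value.

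**Figure D1:**
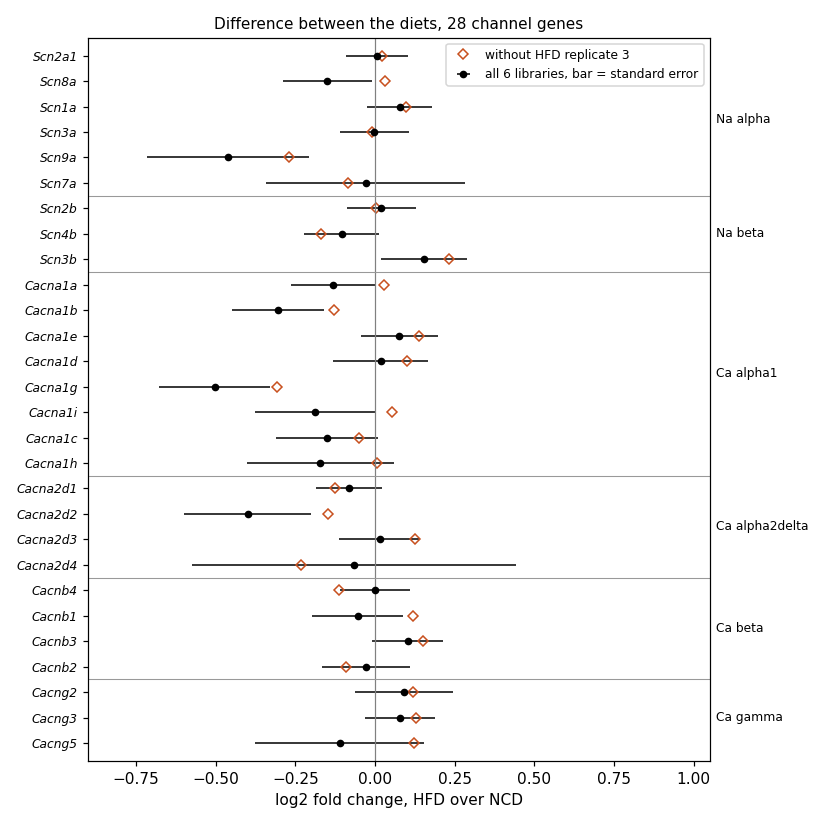
The log2 fold change of HFD over NCD on the horizontal axis is drawn for 28 of the channel genes tested, in 6 subunit classes, with black points and standard error bars for all 6 libraries and open diamonds without HFD replicate 3. Values run from -0.50 for Cacna1g to 0.15 for Scn3b, and 22 of the bars reach 0 or pass it.

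The most abundant sodium channel pores overlapped between the diets. Scn2a1, the channel of the axon initial segment of excitatory neurons, measured 577, 517 and 479.9 CPM in NCD and 532, 533 and 516 CPM in HFD, each trio in the order of replicates 1 to 3. Scn8a, the main channel of nodes of Ranvier and of the distal initial segment, measured 367, 343 and 365 CPM in NCD and 387, 345 and 237 CPM in HFD. Scn1a, the channel of fast-spiking inhibitory neurons whose loss causes Dravet syndrome, measured 170.0, 162 and 187 CPM in NCD and 189.6, 181 and 178 CPM in HFD. The HFD libraries of Scn2a1 and Scn1a lay within or next to the NCD range, whereas for Scn8a HFD replicate 3 was below every other library. The log2 fold changes were 0.0059 (SE 0.10) for Scn2a1, 0.08 (SE 0.10) for Scn1a and -0.15 (SE 0.14) for Scn8a, and the last became 0.03 (SE 0.09) without HFD replicate 3. Scn3a, the pore prominent in the embryonic brain, differed by -0.0032 (SE 0.11).

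The alpha subunits best known from other tissues were sparse. Scn9a, a channel of pain-sensing and sympathetic neurons, gave 6.91, 8.41 and 8.85 CPM in NCD and 5.76, 7.54 and 4.12 CPM in HFD. The HFD and NCD ranges overlapped and HFD replicate 3 was the lowest library, with 30 counts. The log2 fold change of -0.46 (SE 0.25) was among the lowest 3 of all channel genes, with unadjusted p = 0.0878 and adjusted p = 0.979 in edgeR. It became -0.27 (SE 0.25) without HFD replicate 3, and reached -0.71 (SE 0.29, unadjusted p = 0.0270 in edgeR) without HFD replicate 2. With any other library left out, the unadjusted p in edgeR lay between 0.0677 and 0.294. Scn7a, which encodes a sodium sensor, held 3.02 to 4.81 CPM. The skeletal muscle channel Scn4a was at 0 counts in all 6 libraries, which allows up to 0.316 to 0.432 CPM, and the sensory neuron channels Scn10a and Scn11a never exceeded 6 and 4 counts. Scn11a had 2, 3 and 0 counts in NCD and 4, 3 and 4 in HFD. Its CPM was higher in each HFD library than in any NCD library, but counts this low were not tested. Markers of the source tissues were low but not absent. The 7 skeletal muscle markers summed to between 19.6 and 21.1 CPM in NCD and between 16.5 and 18.4 CPM in HFD, with Ckm at or under 3 counts throughout. The 6 sensory ganglion markers summed to between 5.36 and 9.28 CPM, with Avil, Mrgprd and Trpv1 at or under 3 counts.

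Scn1a, Scn2a, Scn3a, Scn7a and Scn9a lie close together on chromosome 2. Between 2.59% and 5.08% of the 75-base words of the Scn1a, Scn2a, Scn3a and Scn9a transcripts occur in another of these 4 genes. In the last 1500 bases of each transcript, where libraries primed at the 3′ end draw their reads, the share was 0%.

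Sodium channel beta subunits showed no difference past the test. Scn2b, which is bound to the alpha subunit by a disulfide bridge, measured 216, 198 and 248 CPM in NCD and 213, 229 and 228 CPM in HFD. Scn4b, the subunit linked to resurgent current, measured 67.4, 57.0 and 67.0 CPM in NCD and 58.0, 55.5 and 64.5 CPM in HFD. In both the diets overlapped, and the highest library was an NCD library. Scn3b, which binds the alpha subunit without a disulfide bridge, had 35.3, 30.4 and 38.5 CPM in NCD and 41.5, 40.2 and 34.2 CPM in HFD and the highest log2 fold change of all channel genes, 0.15 (SE 0.13), with unadjusted p = 0.267 and adjusted p = 0.979 in edgeR. The values were 0.02 (SE 0.11) for Scn2b and -0.10 (SE 0.12) for Scn4b. The 4 beta genes together summed to 663 ± 81.1 CPM (SD, n = 3) in NCD and 627 ± 15.99 CPM in HFD.

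Among the calcium channel pores, Cacna1g and Cacna1b were the only ones of the 30 tested channel genes whose HFD libraries all lay under their NCD libraries, and 0 had them all above. This was 6.67% of the genes tested beside a background of 4.49% of all genes below and 4.31% above. Cacna1g encodes a T-type channel, which opens near rest and drives burst firing, as in thalamic relay neurons, and lies at chr11:94408391-94474198 on the minus strand (mm10). It measured 37.2, 36.4 and 38.7 CPM in NCD and 34.7, 26.1 and 18.4 CPM in HFD, a mean of 37.4 ± 1.17 CPM (SD, n = 3) in NCD and of 26.4 ± 8.14 CPM in HFD. The NCD libraries were tightly grouped, HFD replicate 1 was just under them, and replicates 2 and 3 were further down. The log2 fold change was -0.50 (SE 0.17), with unadjusted p = 0.0106 and adjusted p = 0.979 in edgeR. An exact permutation test of the 6 values gave a two-sided p = 0.1, the smallest that 3 against 3 allows. It was run only on genes whose diets did not overlap, which always receive this p, so it adds no evidence to the separation. The log2 fold change was -0.31 (SE 0.14, unadjusted p = 0.0416 in edgeR) without HFD replicate 3 and -0.74 (SE 0.17, unadjusted p = 0.00043 in edgeR) without HFD replicate 1. The 7 thalamus markers, in which Tcf7l2 and Prkcd stand for relay nuclei, summed to between 488 and 580 CPM in NCD and between 487 and 554 CPM in HFD, with HFD replicate 3 the lowest, and 0 of 7 differed at that p. Their part in the Cacna1g values was not tested.

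Cacna1b, the N-type channel of presynaptic terminals, lies at chr2:24603887-24763152 on the minus strand and measured 77.9, 73.8 and 71.4 CPM in NCD and 71.4, 64.7 and 44.3 CPM in HFD. HFD replicate 1 touched the lowest NCD library (71.40 against 71.43 CPM), replicate 2 was somewhat lower, and replicate 3 was far under the rest. The log2 fold change was -0.31 (SE 0.14), with unadjusted p = 0.0505 and adjusted p = 0.979 in edgeR. The exact permutation p was 0.1 (two-sided), likewise fixed by the lack of overlap. Without HFD replicate 3 the value was -0.13 (SE 0.10), and under upper-quartile scaling or with library size alone the ranges of the diets overlapped.

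The other pores overlapped between the diets. Cacna1a, the P/Q-type channel that triggers release at most central synapses, measured 210.0, 203 and 219 CPM in NCD and 214, 215 and 147 CPM in HFD. Cacna1e, the R-type channel, measured 53.0, 44.9 and 45.9 CPM in NCD and 52.7, 52.6 and 46.1 CPM in HFD. The lowest library was HFD replicate 3 for Cacna1a and NCD replicate 2 for Cacna1e, and the log2 fold changes were -0.13 (SE 0.13) and 0.08 (SE 0.12), the former turning to 0.03 (SE 0.08) without HFD replicate 3. Of the L-type pores, Cacna1c and Cacna1d ranged over the 6 libraries from 23.1 to 34.3 CPM and from 28.6 to 40.9 CPM, with log2 fold changes of -0.15 (SE 0.16) and 0.02 (SE 0.15). The remaining T-type pores, Cacna1h and Cacna1i, had -0.17 (SE 0.23) and -0.19 (SE 0.19), and 0.01 (SE 0.22) and 0.05 (SE 0.13) without HFD replicate 3. The muscle and retina pores Cacna1s and Cacna1f had at most 6 counts and 1 count in any library, and 5 photoreceptor markers summed to between 1.94 and 4.40 CPM.

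**Figure D2:**
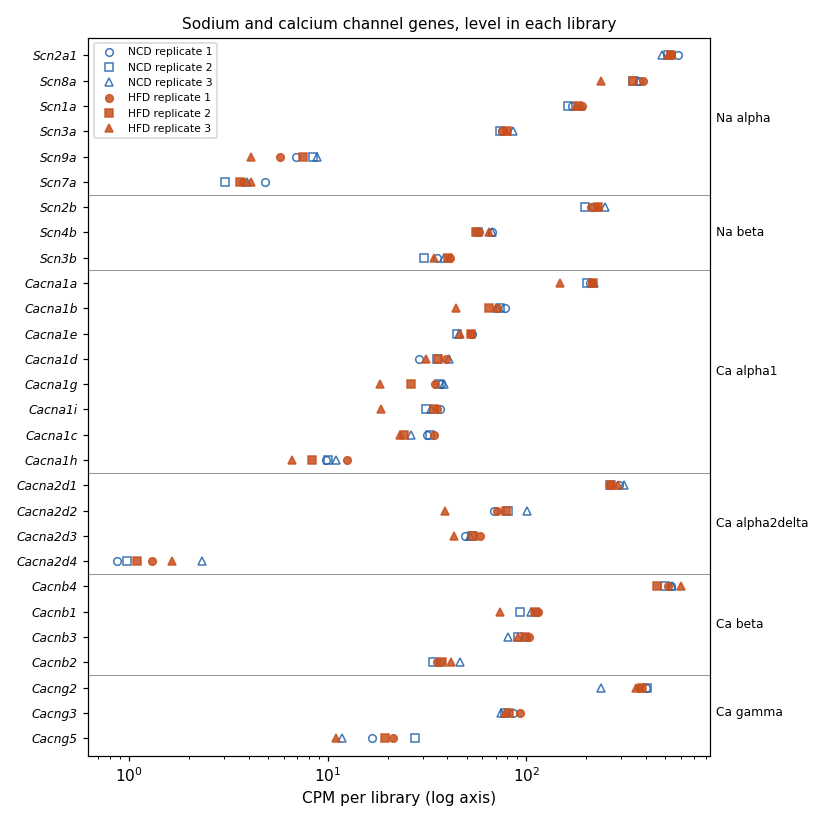
CPM in each library is drawn on a logarithmic horizontal axis for 28 of the channel genes tested, with open blue symbols for NCD, filled orange symbols for HFD, and circles, squares and triangles for replicates 1, 2 and 3. Most genes form tight clusters of 6 symbols, and the filled triangle of HFD replicate 3 is the leftmost symbol for 12 of the 28.

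Promoters are printed to show how different the start regions of these genes are: those of Cacna1b, whose diets did not overlap, of Scn8a, which was likewise low in HFD replicate 3, and of the abundant Scn2a, which was not. Each runs 5′ to 3′ on the strand of its gene, from 250 bases before to 50 bases after a RefSeq start (GRCm38.p6). Capitals mark GC boxes, the letters GGGCGG on either strand. Cacna1b had 1 such window and Scn8a and Scn2a had 2 each. Where a gene had more than 1, only the window nearest its GENCODE start was used, so the values do not cover its other starts.
Cacna1b, chr2:24763103-24763402, minus strand: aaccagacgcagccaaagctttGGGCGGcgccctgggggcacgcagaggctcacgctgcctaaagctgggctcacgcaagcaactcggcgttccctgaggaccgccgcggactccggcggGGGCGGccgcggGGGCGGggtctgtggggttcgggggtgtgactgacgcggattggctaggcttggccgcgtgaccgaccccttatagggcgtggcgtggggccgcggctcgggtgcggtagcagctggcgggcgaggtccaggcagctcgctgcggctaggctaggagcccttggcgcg
Scn8a, chr15:100870395-100870694, plus strand: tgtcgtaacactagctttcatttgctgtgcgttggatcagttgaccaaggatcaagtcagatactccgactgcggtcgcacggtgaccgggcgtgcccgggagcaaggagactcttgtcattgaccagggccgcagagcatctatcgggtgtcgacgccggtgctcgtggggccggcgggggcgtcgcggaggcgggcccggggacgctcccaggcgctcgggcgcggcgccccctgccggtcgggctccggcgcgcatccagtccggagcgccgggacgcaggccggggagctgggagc
Scn2a, chr2:65620519-65620818, plus strand: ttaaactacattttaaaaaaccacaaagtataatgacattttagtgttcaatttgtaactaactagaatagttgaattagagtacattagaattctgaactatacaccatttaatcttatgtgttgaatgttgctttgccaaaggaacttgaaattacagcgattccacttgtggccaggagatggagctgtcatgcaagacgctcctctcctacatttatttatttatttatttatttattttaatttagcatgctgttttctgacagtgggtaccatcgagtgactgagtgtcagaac
The Cacna1b window held 3 GC boxes and was 72.3% G and C. The Scn8a window was 70% G and C and held 0 boxes, and the Scn2a window was 33% G and C and also held 0. These windows do not stand for the rest. Cacna2d3 (81.3% G and C) was lowest in HFD replicate 3, while Cacna2d1 (80%) and Cacnb4 (78.3%) were not. Scn9a was lowest there with 57.3% and 0 boxes. A relation between these windows and the level in HFD replicate 3 was not tested. Of the 30 channel genes with a RefSeq window 13 held a GC box, beside 35.7% of all 32851 windows. Among the tested channel genes with a window, a box stood in 5 of the 9 that were lowest in HFD replicate 3 and in 5 of the other 13. Cacna1a, Cacna1g, Cacna1h, Cacna2d4, Cacng1, Cacng4, Scn3a and Scn3b were among those with no entry.

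The alpha2delta genes encode extracellular proteins that carry the pores to the surface, and the products of Cacna2d1 and Cacna2d2 bind gabapentin. Cacna2d1 measured 293, 264 and 312 CPM in NCD and 263, 268 and 289 CPM in HFD. Cacna2d2 measured 68.5, 80.4 and 101 CPM in NCD and 71.1, 79.3 and 38.8 CPM in HFD. Cacna2d3 measured 49.1, 53.4 and 51.8 CPM in NCD and 58.6, 53.9 and 43.4 CPM in HFD. Cacna2d2 varied most, with NCD replicate 3 the highest and HFD replicate 3 the lowest library, and its log2 fold change was -0.40 (SE 0.20), with unadjusted p = 0.0601 and adjusted p = 0.979 in edgeR. It became -0.15 (SE 0.14) without HFD replicate 3 and -0.61 (SE 0.22, unadjusted p = 0.0130 in edgeR) without HFD replicate 2. Cacna2d1 and Cacna2d3 stood at -0.08 (SE 0.10) and 0.01 (SE 0.13). Cacna2d4, best known from the retina, had 7 to 22 counts per library and -0.07 (SE 0.51), the least precise value of the channel genes.

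The intracellular beta subunits, which shield the pore from degradation, summed to nearly the same level on both diets, 757 ± 34.5 CPM (SD, n = 3) in NCD and 759 ± 54.9 CPM in HFD. Cacnb4, the beta subunit mutated in the lethargic mouse, measured 533, 499.8 and 539.9 CPM in NCD and 515, 454 and 604 CPM in HFD. Cacnb1, the form also used by skeletal muscle, measured 111, 93.4 and 106 CPM in NCD and 114, 111 and 74.0 CPM in HFD. Cacnb3, a partner of N-type channels, measured 99.9, 90.9 and 80.9 CPM in NCD and 103, 98.2 and 90.5 CPM in HFD. HFD replicate 3 was the highest library for Cacnb4 and the lowest for Cacnb1. The log2 fold changes were 0.00017 (SE 0.11) for Cacnb4, -0.05 (SE 0.14) for Cacnb1 and 0.10 (SE 0.11) for Cacnb3, the second highest of the channel genes, and the one for Cacnb2, a partner of L-type channels, was -0.03 (SE 0.14).

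Of the gamma genes, 3 had enough counts to be tested. Cacng2 (stargazin), which anchors AMPA receptors at the synapse, measured 401, 405 and 237 CPM in NCD and 371, 383 and 356 CPM in HFD. Cacng3, a relative with the same role in the cortex, measured 85.4, 77.9 and 74.9 CPM in NCD and 92.4, 81.4 and 77.7 CPM in HFD. Cacng5, of the second group of AMPA receptor gamma proteins, measured 16.8, 27.4 and 11.8 CPM in NCD and 21.3, 19.5 and 10.999 CPM in HFD. For Cacng2 the library out of line was NCD replicate 3, below the other 5, which lay between 356 and 405 CPM. The log2 fold changes were 0.09 (SE 0.15) for Cacng2, the third highest of the channel genes, 0.08 (SE 0.11) for Cacng3 and -0.11 (SE 0.27) for Cacng5. The first turned to -0.12 without NCD replicate 3, and the last to 0.12 without HFD replicate 3 and 0.28 without NCD replicate 2. The 5 other gamma genes stayed under the filter. Cacng6, like Scn4a, was at 0 in all libraries, Cacng1 had 0 to 6 counts, Cacng4 3 to 10, Cacng7 0 to 14, and Cacng8 1 count in each of NCD replicates 1 and 2 and 0 elsewhere. Cacng4, Cacng7 and Cacng8 are known as auxiliary AMPA receptor subunits, and Cacng1 as the gamma subunit of skeletal muscle. These libraries count transcript 3′ ends and the annotation used is not stated, so low counts here do not show absence from the forebrain.

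Summed over their class, the alpha1 genes came to 485, 467 and 487 CPM in NCD and 495, 462 and 335 CPM in HFD. HFD replicates 1 and 2 flanked the NCD range and replicate 3 was far under it, so the ratio of the means was 0.898, and 0.997 without replicate 3. The ratios of the other classes were 0.976 for sodium alpha, 0.946 for sodium beta, 0.916 for alpha2delta, 1.003 for calcium beta and 1.06 for gamma genes. When single libraries were left out, the ratio stayed under 1 for alpha1 and alpha2delta genes and crossed 1 for the others. It reached 1.02 for sodium alpha genes without HFD replicate 3, 1.014 for sodium beta genes without NCD replicate 3, 0.969 for calcium beta genes without HFD replicate 3 and 0.930 for gamma genes without NCD replicate 3. A single gene led most classes: Cacng2 gave 78.0% of the gamma sum, Cacnb4 69.1% of the beta sum, Cacna2d1 69.0% of the alpha2delta sum, Scn2a1 46.2% of the sodium alpha sum and Cacna1a 44.2% of the alpha1 sum.

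**Figure D3:**
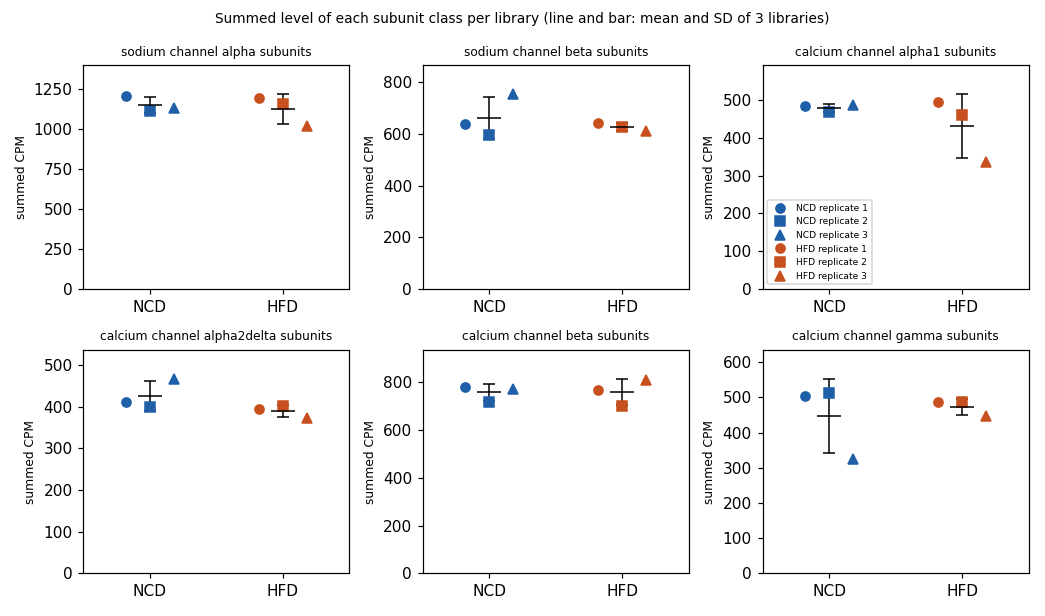
Summed CPM (vertical axes, from 0) of 6 subunit classes is drawn for each of the 3 NCD (blue) and 3 HFD (orange) libraries, with lines and bars for the mean and SD. The alpha1 sum is 335 CPM in HFD replicate 3 against 462 to 495 CPM in the other libraries, and the gamma sum is 326 CPM in NCD replicate 3.

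Levels of different genes were set side by side per kilobase of the longest annotated transcript, although libraries of transcript 3′ ends do not gain reads with length. Cacng2 stood at 65.2, Cacnb4 at 63.8 and Scn2a1 at 58.9 CPM per kb as means of the 6 libraries. Lower levels were those of Scn2b at 47.6, Cacna2d1 at 37.9, Cacnb3 at 34.3, Cacnb1 at 29.9, Scn8a at 29.8 and Cacng3 at 29.4 CPM per kb. Cacna1a, at 25.4 CPM per kb, was the foremost alpha1 gene, above Cacna1b at 6.91 and Cacna1g at 3.81 CPM per kb. The order depends on this division, since the 6-library means undivided were 526 CPM for Scn2a1, 524 for Cacnb4, 359 for Cacng2, 341 for Scn8a, 101 for Cacnb1 and 81.6 CPM for Cacng3. For 10 of the 40 genes an exon overlaps one of another gene on the other strand (among those tested Cacna1a, Cacna1d, Cacna1h, Cacna2d2, Cacnb1, Cacnb2, Cacnb4, Cacng2 and Scn9a), and since the use of strand in counting is not stated, their levels are uncertain to that extent.

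HFD replicate 3 held the lowest value for 14 of the 30 channel genes tested (46.7%), beside 27.1% of all genes tested. The other 5 libraries were lowest for between 1 and 7 channel genes each. In 11 of the 30 (36.7%) its log2 level was over 0.5 under the mean of the other 5 libraries, beside 9.48% of all genes. Among these were Cacna2d2 (-1.02), Cacna1g (-0.88), Cacna1i (-0.86), Scn9a (-0.78), Cacng5 (-0.74), Cacna1b (-0.69), Scn8a (-0.61), Cacna1h (-0.60), Cacna1a (-0.53) and Cacnb1 (-0.53). NCD replicate 3 was that far under the others for 2 channel genes, Cacng2 and Cacng5, and the remaining 4 libraries for 0.

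Of the 11 genes low in this library, 10 had longest transcripts over 50% GC over their whole length, a bound set after the values were seen. In the last 1500 bases, where the reads are drawn, the split was weaker. There Cacna1a (60.1%), Cacnb1 (58.2%), Cacna1h (56.5%), Cacna1i (54.1%), Cacna1g (53.1%) and Scn8a (50.5%) were over 50%. Cacna2d2 (48.7%), Cacng5 (47.5%), Cacna1b (41.5%) and Scn9a (31.4%) were under it. The values that follow use the whole transcript. Of the 18 channel genes over 50% GC, 12 were lowest in HFD replicate 3, with a median log2 deviation of -0.53, and of the 12 at or under 50% GC it was 2, with a median of -0.02. Over all genes the library was lowest for 37.8% and 16.4% of the same classes. Across genes, which are not independent replicates and here share 1 library, Spearman's rho of the deviation with GC content was -0.51 over 30 channel genes and -0.33 over 13665 genes, and with transcript length -0.28 in both. In the other 5 libraries rho with GC content over the channel genes lay between 0.05 and 0.45. Their deviations are taken from means that include HFD replicate 3, so these values are not independent of that library. With the trend on GC content and length taken out of each library, the log2 fold changes of most genes named as low here moved toward 0. Cacna1i then gave -0.04 (SE 0.13), Cacna1h -0.02 (SE 0.20), Scn8a -0.08 (SE 0.09) and Cacna1a 0.01 (SE 0.08), the last with the other sign, as had Cacnb1 at 0.04 (SE 0.10). Scn9a gave -0.48 (SE 0.25). Smaller than without the offsets but at an unadjusted p under 0.05, Cacna1g gave -0.37 (SE 0.12, unadjusted p = 0.00807 in edgeR), Cacna1b -0.21 (SE 0.10, unadjusted p = 0.0496 in edgeR) and Cacna2d2 -0.31 (SE 0.14, unadjusted p = 0.0447 in edgeR), each with an adjusted p of 0.998. What sets this library apart was not tested.

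**Figure D4:**
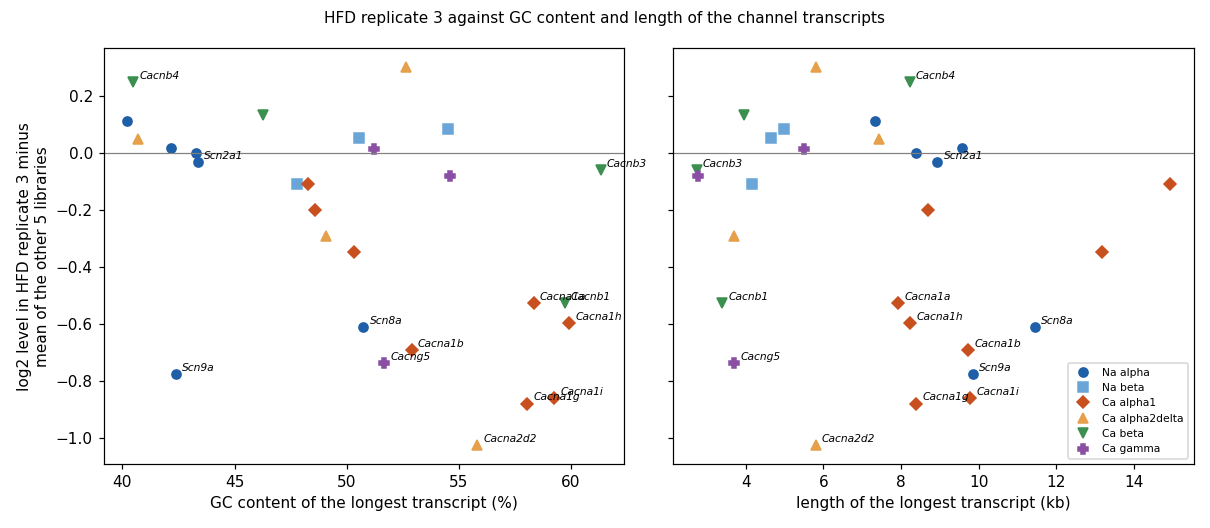
The log2 level in HFD replicate 3 minus the mean of the other 5 libraries (vertical axis) is drawn for 28 of the channel genes tested against the GC content in percent (left) and the length in kb (right) of the longest transcript, with a symbol for each of 6 subunit classes. Points over 50% GC reach down to -1.02 for Cacna2d2, and 1 gene under 50% GC, Scn9a, is over 0.5 under 0.

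Genes that work with these channels were followed in 6 lists. Of the sodium channel partners, which include the intracellular fibroblast growth factors, ankyrins and the node proteins Nfasc and Cntn1, 12 of 12 were tested, 5 positive and 7 negative, with a median log2 fold change of -0.08. Of 23 calcium channel partners, calmodulins, calmodulin kinases and active-zone scaffolds among them, 20 were tested, 8 positive and 12 negative, with a median of -0.03. In neither list did a gene pass at an unadjusted p under 0.05 in edgeR. The 4 genes tested of the NALCN leak channel complex were all negative (median -0.15), and so were 4 of the 6 calcium release channels of the endoplasmic reticulum (median -0.07) and 10 of the 12 calcium pumps and exchangers tested (median -0.08), again with 0 at that p. Of the sodium-potassium pump, which restores the gradients these channels run down, 6 genes were tested, all negative with a median of -0.15 beside -0.0025 over all genes, and 1 was lower at an unadjusted p under 0.05 in edgeR, beside 1.98% of all genes. This was Atp1b2, a beta subunit prominent in astrocytes, with 239, 254 and 289.8 CPM in NCD and 242, 234 and 163 CPM in HFD. HFD replicate 3 was again the lowest library and the other 5 overlapped, and the log2 fold change was -0.29 (SE 0.14), with unadjusted p = 0.0456 and adjusted p = 0.979 in edgeR. The call was lost without HFD replicate 3 (-0.14, SE 0.09), NCD replicate 3 (-0.21, SE 0.15) or NCD replicate 2 (-0.31, SE 0.16). HFD replicate 3 was the lowest library for 6 of 12, 8 of 20, 3 of 4, 5 of 6, 9 of 12 and 4 of 6 genes of these lists, in the order given.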

How the data were processed

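RNA was taken from mouse forebrain with Trizol and made into QuantSeq 3′ mRNA-Seq libraries, read as single ends of 75 bp. The authors trimmed adaptors, aligned reads to mm10 with Bowtie2 and deposited raw counts per gene from Bedtools, from unique and multiple alignments. Which annotation was counted, whether strand was used and the software versions are not given in the sources used here. From these counts, edgeR 4.0.16 (R 4.3.3) was run on 3 HFD against 3 NCD libraries with TMM scaling, a filter on low counts (minimum count 10, minimum total 15) and the quasi-likelihood test, two-sided, with Benjamini-Hochberg adjustment over 13771 genes. CPM used TMM library sizes, and deviations added 0.5 CPM before log2. Positions, lengths and GC content came from GENCODE M21 (mm10). The fit was checked on simulated counts with changes larger than any among the channel genes and no outlying library. That check does not cover effects of the size seen here. The 15 alternatives tried included DESeq2 1.42.0 and limma 3.58.1 after quantile normalization. The channel genes and lists were chosen with earlier results of these data known. Values per library were given for the 3 genes with the highest mean CPM of each subunit class, those at an unadjusted p under 0.05, the 3 highest and 3 lowest log2 fold changes and those tested whose diets did not overlap. Other genes were named to account for every member, and those low in HFD replicate 3 were chosen after their values were seen. By name, 2 of the tested genes are not reported here, though the counts and sums include them. The floor of 3 counts covers counting error only.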

Additional observations from a re-analysis of the deposited data

How the results depend on the processing

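Across the 15 alternatives, 0 channel genes were higher at an unadjusted p under 0.05 in each, and the number lower, 1 as reported, was 3 with GC and length offsets (an alternative chosen after seeing the data), 2 with at least 10 counts in every library, 3 with no count filter, and between 1 and 4 when a library was left out. Cacna1g was among them each time, with log2 fold changes from -0.74 to -0.31 and adjusted p from 0.360 to 0.9999. The number of all genes with an adjusted p under 0.05, 0 in edgeR, was 2 in DESeq2, 23 with no count filter and between 0 and 3 when a library was left out, and the 3 came without NCD replicate 3. Channel genes whose diets did not overlap were 1 rather than 2 under upper-quartile scaling and 1 with library size alone. The median log2 fold change stayed between -0.12 (without NCD replicate 2) and 0.01 (without HFD replicate 3). Of 464 values of single genes under the alternatives, 42 had the other sign, in 16 genes. With the replicate number as a block, 2 channel genes were lower at that p, Cacna1g and Cacna1b. Deviations of same-numbered libraries correlated at only -0.03, 0.05 and -0.06, and not every library correlated best with its own number. Deviations from a mean of 3 libraries are tied to each other, so these values show no pairing by number but cannot settle it. Under the block Atp1b2 gave -0.31 (unadjusted p = 0.0686), and under library size alone and quantile normalization with limma its unadjusted p was 0.0508 and 0.0917. The cause of these changes was not tested. With 3 libraries a diet and a median SE of 0.14 log2 units, small differences were not detectable, and genes under the filter were not tested.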
